A study of Mus musculus with 8 samples.

Results

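The genes described here encode the receptors that bind the constant (Fc) part of immunoglobulin G (IgG) and the first proteins that carry their signal. They are the activating Fc gamma receptors Fcgr1, Fcgr3 and Fcgr4, the inhibitory receptor Fcgr2b, the signalling chains Fcer1g and Tyrobp, the kinases Syk and Lyn, and the neonatal Fc receptor Fcgrt. They were chosen by gene symbol from the array's annotation, with earlier results of these data known. Counts among them are therefore descriptions. Of the 9 genes, 8 were on a named probe, with 1 probe each, out of 19505 genes on named probes. Lyn was not analysed here. Kidney RNA came from NZBWF1 mice, first-generation offspring of NZB and NZW parents in which lupus-like nephritis develops with age. One group was 8 weeks old and the other 28 weeks old, with 4 mice in each and no treatment named in the labels, and each mouse had 1 Clariom S Mouse array. The labels number the younger mice 1 to 4 and the older mice 6 to 9.

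Fc gamma receptors let leukocytes sense IgG that is bound to antigen, as in the immune complexes of lupus nephritis. Fcgr1, Fcgr3 and Fcgr4 need the Fc receptor gamma chain, encoded by Fcer1g, whose tail carries an immunoreceptor tyrosine-based activation motif (ITAM). Src-family kinases such as Lyn phosphorylate the ITAM, and the kinase Syk then docks on it. Tyrobp, also called DAP12, is another ITAM adaptor and serves other myeloid and NK cell receptors. Fcgr2b instead carries an inhibitory motif (ITIM), which recruits phosphatases that oppose these kinases. Fcgrt belongs to a different system: with beta-2-microglobulin it forms FcRn, which protects IgG and albumin from breakdown in endothelium, proximal tubule and podocytes.

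Values are on the log2 scale of robust multi-array averaging (RMA), which combines the signals of a probe set, with the log base taken as 2 because the sources used here do not state it. Means are given ± SD with n = 4 mice at each age. Each adjusted p comes from limma, corrected by the Benjamini-Hochberg method across the whole array of 22206 probes, and a gene passes when it is under 0.05. Precision is limited by how few arrays there were, and in whole kidney more cells of a type and more RNA per cell cannot be told apart. Array medians lay between 5.98 and 6.14, and markers of the proximal tubule were bright in both groups, with mean levels from 16.31 to 17.11. In many immune genes replicate 7 of the 28-week group lay with the 8-week mice, and 8-week replicate 1 stood apart from its group in some genes, so results are also given without them. These mice were picked by such values. An adjusted p found without them therefore shows how a result depends on them and is no further support for a difference.

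At 28 weeks 7 of the 8 genes had a higher mean than at 8 weeks, and the differences ran from 0.62 for Fcgr2b to 3.99 for Fcer1g. None of the 8 passed the threshold, where 0.968% of all probes did. At an unadjusted p under 0.05, 7 of the 8 genes were higher at 28 weeks, against 8.36% of all probes. The median log2 difference of the 8 genes was 1.36, beside -0.01 over all probes. For 2 of them, Fcgr3 and Fcer1g, all 4 older mice lay above all 4 younger ones, which was so in 4.38% of all probes. In the same 7 genes, replicates 6, 8 and 9 each exceeded every 8-week mouse. The share of all probes in which these replicates did so was not counted. That count sets replicate 7 aside after its values were seen, so it describes these mice and is no further support for a difference. Replicate 7 was the lowest older mouse in all 8 genes and lay inside the 8-week range in 5 of them. How often replicate 7 lay so among all probes was not counted. Without replicate 7, 5 genes passed (Fcgr1, Fcgr3, Fcer1g, Tyrobp and Syk), where 5.57% of all probes did. Replicate 7 was left out after its values in such genes were seen, so these calls are no further support.

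**Figure D1:**
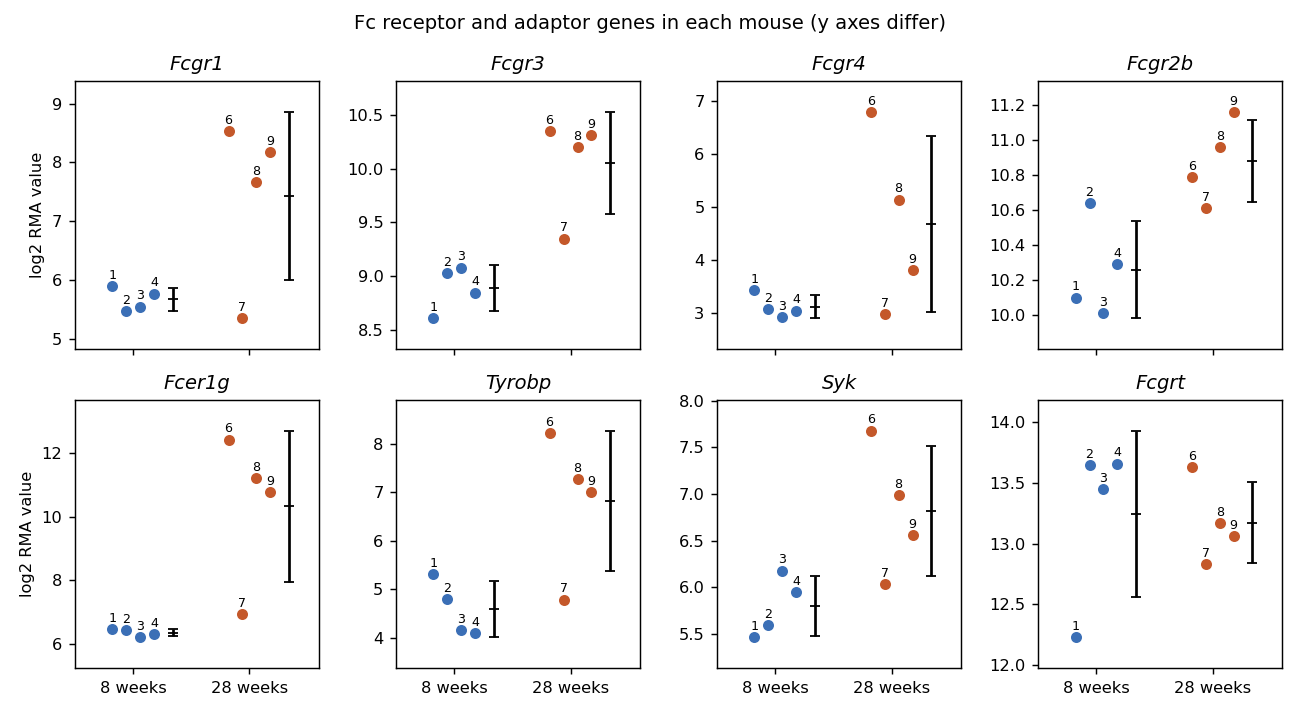
Log2 RMA value of each gene in each mouse, with the 8-week mice in blue, the 28-week mice in orange, replicate numbers above the points, and the mean ± SD (n = 4) beside each group. The y axes differ between panels. Replicates 6, 8 and 9 lie above all 8-week mice in every panel but that of Fcgrt, and replicate 7 is the lowest 28-week mouse in every panel. How often replicates 6, 8 and 9, or replicate 7, lie so among all probes was not counted.

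The promoters shown are those of the Fc gamma receptor genes, the 3 activating ones and the inhibitory Fcgr2b. Replicates 6, 8 and 9 exceeded every 8-week mouse in all of them, as they did in Fcer1g, Tyrobp and Syk. The share of all probes with that order was not counted, so it does not set these genes apart from others. Each line is the 250 bases upstream of the start that lies farthest upstream in RefSeq (build GRCm38.p6, from the C57BL/6J strain and not from NZBWF1 mice), read 5′ to 3′ on the gene's strand. The stretches are chr3:96293970-96294219 on the minus strand for Fcgr1, chr1:171059404-171059653 on the minus strand for Fcgr3, chr1:171018676-171018925 on the plus strand for Fcgr4 and chr1:170976072-170976321 on the minus strand for Fcgr2b. Capitals mark matches, on either strand, to either of 2 motifs. These are GAGGAAG, a form bound by the myeloid factor PU.1, and GAAANNGAA, part of an interferon-stimulated response element.
Fcgr1: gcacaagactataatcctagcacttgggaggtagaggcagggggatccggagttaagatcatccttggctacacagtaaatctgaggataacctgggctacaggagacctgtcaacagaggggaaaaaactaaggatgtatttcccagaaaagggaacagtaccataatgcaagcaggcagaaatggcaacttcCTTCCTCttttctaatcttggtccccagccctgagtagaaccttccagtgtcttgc
Fcgr3: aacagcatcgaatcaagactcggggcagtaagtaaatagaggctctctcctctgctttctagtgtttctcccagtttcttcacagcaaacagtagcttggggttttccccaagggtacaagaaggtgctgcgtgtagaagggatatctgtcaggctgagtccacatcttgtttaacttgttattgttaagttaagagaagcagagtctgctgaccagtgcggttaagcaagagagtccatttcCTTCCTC
Fcgr4: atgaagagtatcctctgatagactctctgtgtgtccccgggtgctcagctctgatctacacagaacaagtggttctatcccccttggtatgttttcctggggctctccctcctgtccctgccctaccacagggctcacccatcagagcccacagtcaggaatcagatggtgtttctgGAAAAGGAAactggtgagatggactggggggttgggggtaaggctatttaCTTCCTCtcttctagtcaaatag
Fcgr2b: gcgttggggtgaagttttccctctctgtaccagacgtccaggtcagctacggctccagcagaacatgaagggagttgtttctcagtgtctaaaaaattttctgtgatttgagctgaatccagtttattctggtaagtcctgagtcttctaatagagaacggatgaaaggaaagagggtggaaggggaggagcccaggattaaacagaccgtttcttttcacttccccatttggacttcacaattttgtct

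The PU.1-type letters were found in the promoters of Fcgr1, Fcgr3 and Fcgr4, which is 3 of the 7 genes of the group with a promoter in the table, and in 10.4% of 27025 promoters. They appear above as CTTCCTC, the reverse complement. The match ended 49 bases before the start in Fcgr1, 16 bases before it in Fcgr4 and directly at the start in Fcgr3. The interferon-response letters were found only in Fcgr4 among the 7 (7.16% of all promoters), as GAAAAGGAA at 64 bases before the start. No marked matches overlapped, and the promoter of Fcgr2b held neither motif. Those of Fcer1g, Syk and Fcgrt, which are not shown, also held neither. A match describes these letters and is not evidence of binding, and whether it bears on the values below was not tested.

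Fcgr1 encodes the high-affinity IgG receptor of monocytes and macrophages. It read 5.90, 5.47, 5.55 and 5.77 in 8-week replicates 1 to 4, and 8.53, 5.35, 7.66 and 8.17 in 28-week replicates 6 to 9. The younger mice were closely spaced, 3 older mice were far above them and replicate 7 was below them all. The gene averaged 5.67 ± 0.20 in the younger and 7.43 ± 1.43 in the older mice, a 3.38-fold difference (adjusted p = 0.168). Its 95% interval on the log2 scale ran from 0.49 to 3.02.

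Fcgr3 encodes a low-affinity receptor for IgG complexes on macrophages, neutrophils and NK cells. Its values were 8.61, 9.03, 9.08 and 8.85 at 8 weeks, and 10.35, 9.35, 10.20 and 10.31 in replicates 6 to 9 at 28 weeks. The groups did not overlap, and replicate 7 lay between the younger mice and the other older ones. The 2.23-fold difference, 1.16 on the log2 scale with an interval from 0.65 to 1.67, came closest to the threshold of the 8 genes (adjusted p = 0.0506). Fcgr3 passed when the dimmest probes were left out (0.043), with trend and robust options (0.0292) and with array weights (0.018). Of all probes, 1.86%, 1.8% and 3.93% passed in these settings. Fcgr3 did not pass with arrays centred on their medians (0.0531) or on reference genes (0.0687), or quantile-normalized again (0.0522).

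Fcgr4 encodes a receptor for IgG2 subclasses on monocytes, macrophages and neutrophils. It was dim at 8 weeks, at 3.43, 3.06, 2.92 and 3.04, all below the lower quartile of the arrays (4.16 to 4.44). At 28 weeks it read 6.80 in replicate 6, 2.97 in replicate 7, 5.14 in replicate 8 and 3.80 in replicate 9. Replicate 6 stood highest, replicate 9 was only a little above the younger mice, and replicate 7 was among them. The mean difference of 1.56, a 2.96-fold difference, had an interval from 0.10 to 3.03 (adjusted p = 0.297). Without replicate 6 the difference was 0.86, and RMA understates differences of such dim probes.

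Fcgr2b encodes the only inhibitory Fc gamma receptor and is expressed by B cells, myeloid cells and endothelium. The NZB strain is known to carry promoter variants of this gene, which both age groups share. It read 10.10, 10.64, 10.01 and 10.29 at 8 weeks and 10.79, 10.61, 10.96 and 11.16 in replicates 6 to 9. Here replicate 6 was below replicates 8 and 9, and replicate 7 lay just under the highest younger mouse. The difference was 0.62, or 1.54-fold, with an interval from 0.21 to 1.03 (adjusted p = 0.134). The SD was 0.28 at 8 weeks and 0.24 at 28 weeks, so the older mice were no more spread than the younger ones, unlike for the activating receptors. Fcgr2b and Fcgr3 have near-identical stretches and their probes could pick up each other's transcript, so their separate values are uncertain.

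**Figure D2:**
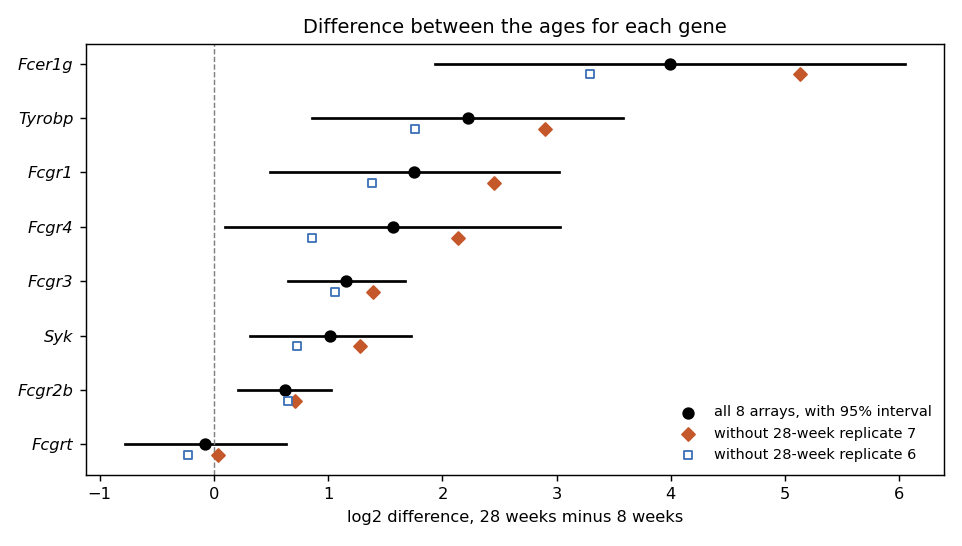
Log2 difference between 28 and 8 weeks for each gene. Black points with lines give all 8 arrays with the 95% interval from limma, and the orange diamonds and open blue squares give the difference without replicate 7 and without replicate 6. Fcer1g has the highest difference (3.99, and 3.29 to 5.13 without either mouse), and the interval of Fcgrt spans 0.

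The signalling chains had the widest differences. Fcer1g read 6.46, 6.42, 6.21 and 6.29 in the 8-week mice and 12.44, 6.92, 11.22 and 10.77 in replicates 6 to 9. The younger mice lay within 0.25 of each other, and the older mice spread over 5.52 without overlapping them. The gene averaged 6.35 ± 0.12 in the younger and 10.34 ± 2.39 in the older mice, 15.9-fold higher, with an interval from 3.82-fold to 66.4-fold (adjusted p = 0.0777). Replicate 7 was 0.58 above the 8-week mean, while replicates 6, 8 and 9 were 6.10, 4.88 and 4.43 above it. The gene passed with array weights (0.0247) and without replicate 7 (8.42e-05), but not with trend and robust options (0.145).

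Tyrobp, the other ITAM adaptor, read 5.32, 4.81, 4.16 and 4.11 at 8 weeks and 8.21, 4.79, 7.27 and 7.01 in replicates 6 to 9. The younger mice were themselves spread over 1.21, and replicate 7 was among them. The 28-week mean was 4.66-fold higher (log2 difference 2.22, interval 0.86 to 3.58, adjusted p = 0.115). The adjusted p was 0.034 with array weights, 0.145 with trend and robust options, and 0.00175 without replicate 7. Syk, the kinase that binds phosphorylated ITAMs and is also found outside the myeloid lineage, read 5.47, 5.60, 6.18 and 5.95 at 8 weeks. In replicates 6 to 9 it read 7.68, 6.04, 6.99 and 6.56. The groups overlapped only through replicate 7, and the 2.02-fold difference had an interval from 1.24-fold to 3.30-fold (adjusted p = 0.154). Without replicate 7 the adjusted p of Syk was 0.0286, and without replicate 7 and 8-week replicate 1 together it was 0.0504.

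Fcgrt, which binds IgG without signalling through an ITAM, was bright in every mouse, at 12.23, 13.65, 13.45 and 13.66 at 8 weeks and 13.63, 12.83, 13.17 and 13.06 in replicates 6 to 9. The groups overlapped throughout, and 8-week replicate 1 was the lowest of all 8 mice. The gene averaged 13.25 ± 0.69 in the younger and 13.17 ± 0.34 in the older mice (adjusted p = 0.949). The interval of the log2 difference, from -0.78 to 0.63, allows a fold from 0.583 to 1.55. Without 8-week replicate 1 the difference was -0.41 (adjusted p = 0.337). B2m, which encodes the light chain of FcRn and of MHC class I molecules, averaged 17.31 ± 0.34 in the younger and 18.23 ± 0.57 in the older mice (log2 difference 0.92, adjusted p = 0.146). Among 9 measured FcRn partners, which include the endocytic receptors megalin and cubilin, none passed. At an unadjusted p under 0.05, 1 of the 9 was higher (B2m) and 2 were lower, where 8.36% of all probes were higher and 6.63% lower. Of the lower pair, Amn, the partner of cubilin, had the smaller p and differed by -0.45. The list's median difference was -0.08.

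The older mice kept a similar order across genes. Replicate 6 was the highest older mouse in 7 of the 8 genes, Fcgr2b being the exception. The median over the 8 genes of the distance from the 8-week mean was 2.37 in replicate 6, 1.65 in replicate 8, 1.16 in replicate 9 and 0.22 in replicate 7. In 6 of the 8 genes the SD was larger at 28 weeks than at 8 weeks, by 2.14 times in Syk to 20.6 times in Fcer1g. The exceptions were Fcgr2b and Fcgrt. The shares of all probes with replicate 6 highest, or with a larger SD at 28 weeks, were not counted. These counts therefore do not set the 8 genes apart from others.

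Whether the activating side changed more than the inhibitory one was examined within each array. The log2 value of Fcgr2b was subtracted from that of an activating gene, and the ages were compared by exact permutation (two-sided, 70 arrangements, smallest possible p 0.0286). The difference between 2 probes within 1 array has no meaning as a level, so only its change between the ages is given. For Fcer1g against Fcgr2b it was -3.64, -4.22, -3.80 and -4.00 at 8 weeks and 1.65, -3.69, 0.26 and -0.39 in replicates 6 to 9. Replicate 7 lay within the younger mice and the other 3 were above them, with a mean shift of 3.37 (exact p = 0.0571, adjusted over the 4 pairs 0.114). The shift was 0.54 for Fcgr3 (exact p = 0.0571, adjusted 0.114), 1.14 for Fcgr1 (exact p = 0.143, adjusted 0.19) and 0.94 for Fcgr4 (exact p = 0.4). The probes of Fcgr2b and Fcgr3 could pick up each other's transcript, and Fcgr4 was dim at 8 weeks, so these shifts are uncertain. None of the 4 pairs passed. With 1 or 2 pairs fully separated the adjusted p cannot go below 0.0571, and with 3 not below 0.0381. A pass thus needed at least 3 fully separated pairs. No pair was fully separated, and replicate 7 lay within or below the younger mice in each. The limma intervals were 1.4 to 5.34 for Fcer1g, 0.07 to 1.01 for Fcgr3, -0.05 to 2.32 for Fcgr1 and -0.55 to 2.44 for Fcgr4, without adjustment for the number of pairs. In limma beside all probes the adjusted p was from 0.102 for Fcer1g to 0.587 for Fcgr4.

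**Figure D3:**
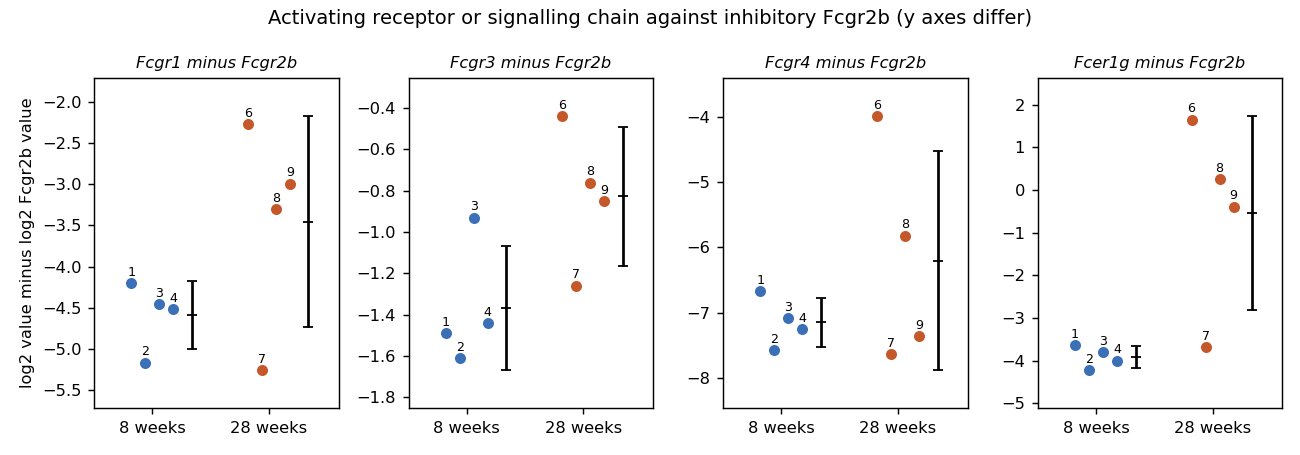
Log2 value of each activating receptor or of Fcer1g minus that of Fcgr2b in each mouse (8 weeks in blue, 28 weeks in orange, replicate numbers above the points, mean ± SD with n = 4 beside each group). Only the shift between the ages can be read, not the level. In the panel of Fcer1g, replicates 6, 8 and 9 lie above the 8-week mice and replicate 7 lies at -3.69, among them.

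Fcgr2b, Fcgr4, Fcgr3 and Fcer1g lie on chromosome 1 in that order in RefSeq, and the other genes of the group lie on chromosomes 3, 4, 7 and 13. Between Fcgr2b and Fcer1g the table lists 7 further protein-coding genes, of which 6 were measured (Cfap126, Sdhc, Pcp4l1, Nr1i3, Tomm40l and Apoa2). Their log2 differences lay between -0.24 and 0.16, with a median of 0.056. None passed, and none had an unadjusted p under 0.05 in limma, nor did any pass under the other settings tried. The Fc receptor genes of the interval had differences from 0.62 to 3.99.

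**Figure D4:**
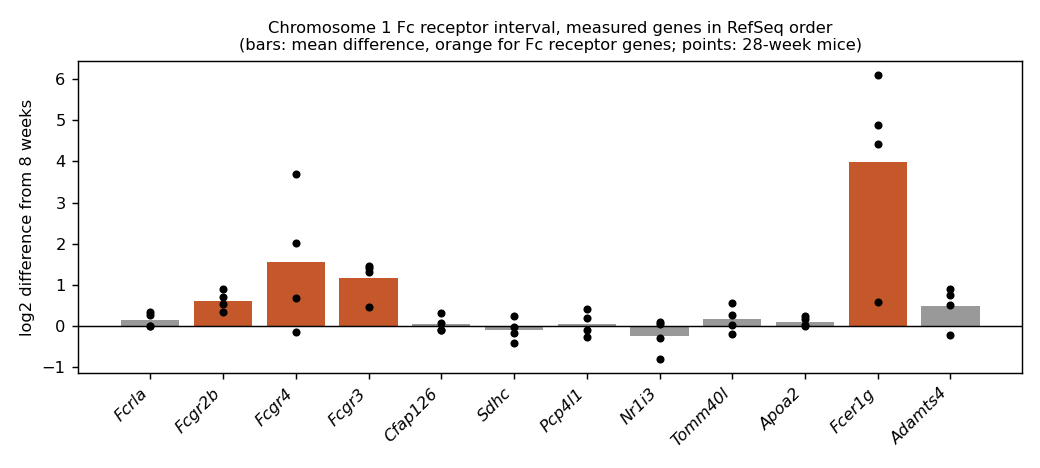
Log2 difference between 28 and 8 weeks for the measured genes of the chromosome 1 interval, in RefSeq order and evenly spaced. Bars are means (orange for Fcgr2b, Fcgr4, Fcgr3 and Fcer1g, grey for others) and points are the 4 older mice against the 8-week mean. The genes between Fcgr3 and Fcer1g stay between -0.24 and 0.16 on average.

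Other genes of the pathway were examined in 7 lists with 128 measured genes, of which 1 passed, where 0.968% of all probes did. Over all probes the median difference was -0.01, and the share with a positive difference was not counted. The lists were written with earlier results of these data known, so their counts beside all probes are descriptions. Receptors that couple to an ITAM had positive differences in 19 of 20 measured genes, with a median of 0.43. At an unadjusted p under 0.05, 8 were higher, against 8.36% of all probes. None passed. Cd300c2, a CD300 family receptor that pairs with Fcer1g, averaged 4.32 ± 0.08 in the younger and 5.43 ± 0.53 in the older mice (adjusted p = 0.0614). Nfam1, which has an ITAM of its own, averaged 4.92 ± 0.10 in the younger and 5.84 ± 0.45 in the older mice (adjusted p = 0.077). Trem2, a lipid receptor that signals through Tyrobp and is named here after its values were seen, had a log2 difference of 0.55 (adjusted p = 0.185).

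Downstream of the ITAM, 24 of 30 measured genes had a positive difference, with a median of 0.22, and none passed. At an unadjusted p under 0.05, 10 were higher, against 8.36% of all probes. Vav1, an exchange factor that activates Rac, read 4.44, 4.93, 5.12 and 4.48 at 8 weeks and 6.78, 4.77, 6.62 and 6.36 in replicates 6 to 9 (adjusted p = 0.125). The Src-family kinase gene Fgr averaged 3.87 ± 0.17 in the younger and 4.81 ± 0.64 in the older mice (adjusted p = 0.138). Vav1 repeated the pattern of 3 high older mice and a replicate 7 among the younger ones. In Fgr the groups did not overlap. There replicate 9 (4.45) was nearer to replicate 7 (4.13) than to replicates 6 (5.54) and 8 (5.13).

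Genes that restrain ITAM signalling were examined next. Of 34 measured ITIM receptors, phosphatases and other negative regulators, 31 had a positive difference and none passed. At an unadjusted p under 0.05, 15 were higher, against 8.36% of all probes. Lilrb4a, an ITIM receptor of myeloid cells, read 7.06, 7.35, 7.32 and 7.09 at 8 weeks and 11.53, 7.61, 11.86 and 10.81 in replicates 6 to 9. The groups did not overlap, and the mean was 9.5-fold higher (adjusted p = 0.0795). Its paralog Lilr4b may share probe signal with it. Lair1, an ITIM receptor for collagen, was 2.65-fold higher (adjusted p = 0.0624), and Pirb, an ITIM receptor named after its values were seen, 5.12-fold (adjusted p = 0.17). The phosphatases that ITIMs recruit were also named after their values were seen. Ptpn6, which encodes SHP-1, had a log2 difference of 1.01 (adjusted p = 0.306), and Inpp5d, which encodes the lipid phosphatase SHIP-1 used by Fcgr2b, one of 0.48 (adjusted p = 0.662). For Inpp5d the difference was 0.93 (adjusted p = 0.0689) without replicate 7, and 1.14 (adjusted p = 0.0119) without replicate 7 and 8-week replicate 1. Of all probes, 5.57% and 6.23% passed in these settings. The mice were left out after such values were seen, so these p-values are no further support for a difference.

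Genes of the phagocytic response had the highest median of the 6 pathway lists with more than 1 measured gene, 0.84, with 19 of 20 positive. Of the 20, 1 passed and 14 were higher at an unadjusted p under 0.05, against 8.36% of all probes. Myo1f, a myosin of leukocytes, was the gene that passed. It read 5.25, 5.10, 4.80 and 5.33 at 8 weeks and 6.10, 5.86, 6.39 and 5.82 in replicates 6 to 9. The groups did not overlap, replicate 7 was above replicate 9, and the gene rose 1.90-fold (adjusted p = 0.0464). That call ended in 10 of 15 other settings, at adjusted p of up to 0.133. The NADPH oxidase genes Ncf1 and Cybb, the latter named after its values were seen, were 2.80-fold and 8.47-fold higher (adjusted p = 0.0776 and 0.0966). Without replicate 7, 40 of the 128 genes of the 7 lists passed, where 5.57% of all probes did. That mouse was left out after its values in such genes were seen, so these calls are no further support.

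The other Fc receptors had a median difference of 0.12, with 8 of 14 positive and none past the threshold. At an unadjusted p under 0.05, 2 of the 14 were higher and 2 lower, against 8.36% and 6.63% of all probes. Fcgbp, which encodes a mucin-like IgG-binding protein, averaged 5.37 ± 0.11 in the younger and 6.44 ± 0.76 in the older mice (adjusted p = 0.138). Fcamr, which encodes a receptor for IgA and IgM, had a log2 difference of -0.50 (adjusted p = 0.258). Of 12 immunoglobulin chain genes, only the joining chain gene Jchain was on a named probe. No IgG heavy chain gene was, so the IgG that Fc gamma receptors bind was not measured. Jchain read 4.49, 4.47, 3.49 and 5.08 at 8 weeks and 12.79, 7.52, 10.47 and 5.83 in replicates 6 to 9. All older mice exceeded all younger ones, but the order differed from that of Fcer1g: replicate 7 was above replicate 9 (adjusted p = 0.0971).

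**Figure D5:**
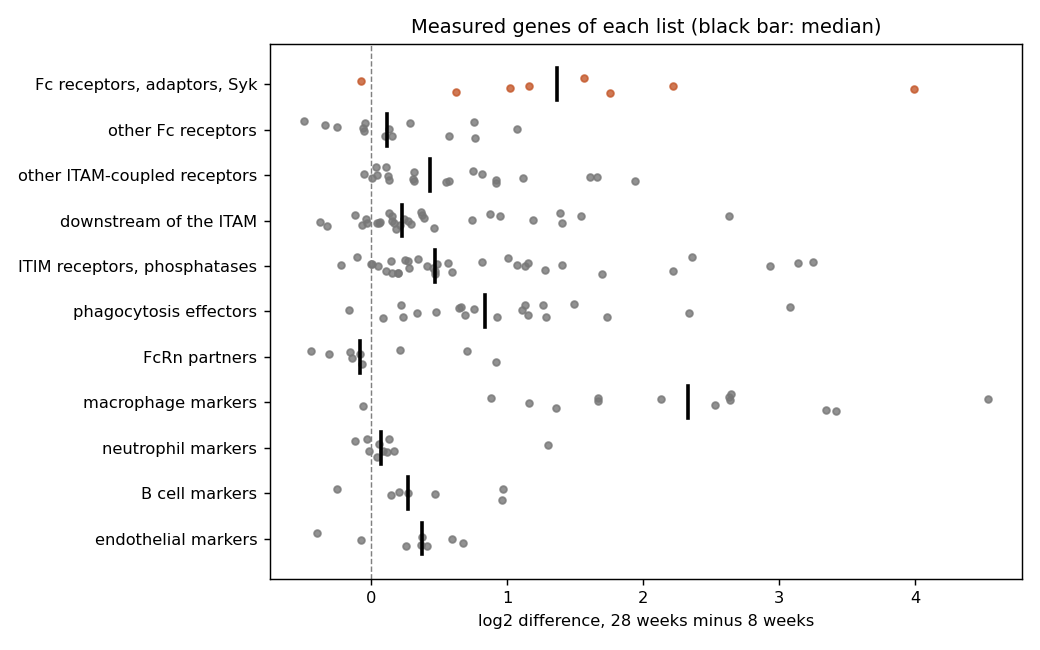
Log2 difference between 28 and 8 weeks for each measured gene of the Fc receptor group (orange) and of 10 other lists (grey), with the list median as a black bar. The median is 1.36 for the Fc receptor group, 2.33 for macrophage markers and 0.07 for neutrophil markers.

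Markers of macrophages and other leukocytes were followed beside these genes. The marker lists, too, were written with earlier results of these data known. Of 14 measured macrophage or monocyte markers, 13 were positive in difference, 13 at an unadjusted p under 0.05 (8.36% of all probes), and none passed. Their mean distance from the 8-week mean was 3.27, 2.73 and 2.54 in replicates 6, 8 and 9 and 0.18 in replicate 7, against -0.27 to 0.27 in the younger mice. Their mean level was 5.98 to 6.52 at 8 weeks and 6.43 to 9.52 at 28 weeks. The lysozyme gene Lyz2 and the complement gene C1qa had the smallest p, at log2 differences of 4.54 and 2.53 (adjusted p = 0.0607 and 0.0901). Adgre1 and Csf1r, defining markers named after their values were seen, had log2 differences of 1.66 and 1.16. Of 5 pan-leukocyte markers all had positive differences and none passed, with 2.55 for Laptm5, 2.76 for Cd53 and a median of 1.98. The part of these cells in the differences of the Fc receptor genes was not tested.

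Other leukocyte types that carry Fc receptors, or that make their ligands, have marker lists of their own. For 10 neutrophil markers the median difference was 0.07, the mean level was 3.88 to 4.19 at 8 weeks and 4.12 to 4.25 at 28 weeks, and Csf3r had the smallest p (log2 difference 1.30, adjusted p = 0.0853), followed by Ngp at 0.17. For 7 NK cell markers it was 0.015, with Gzma at 0.25 and Eomes at 0.14, and for 7 mast cell markers -0.058, with Kit at -0.33 and Mcpt4 at -0.17. For 7 B cell markers it was 0.27, with 0.96 for both Cd79a and Cd79b, and the mean distance from 8 weeks was 1.08 in replicate 6 and 0.09 to 0.30 in the others. Of 6 plasma cell markers 2 were higher at an unadjusted p under 0.05 (8.36% of all probes). These were Jchain with a log2 difference of 4.77 and Sdc1 with 0.52, and the list's median was 0.28. Of the 6, 2 had negative differences, Derl3 (-0.315) and Tnfrsf17 (-0.21). The median was 0.42 for 7 T cell markers, with Cd3e at 1.08 and Cd3d at 0.42. For 7 dendritic cell markers it was 0.11, with Xcr1 at 1.19 and Itgax at 0.52. Of these 7, 2 had negative differences, Zbtb46 (-0.18) and Cd209a (-0.058). None of these markers passed. RMA gives no value of 0, so no marker can be called absent.

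Markers of cells that express Fcgr2b and Fcgrt outside the leukocytes were also followed. For 8 endothelial markers the median difference was 0.37 and none passed, with 0.68 for Cdh5 and -0.40 for Kdr. Their mean distance from 8 weeks was 0.68, 0.12 and 0.30 in replicates 6, 8 and 9. Of 4 measured podocyte markers none passed, with a median of -0.32, -0.48 for Podxl and -0.27 for Wt1. All 7 proximal tubule markers had negative differences, with a median of -0.52. The anion transporter gene Slc22a6 fell by 0.91 on the log2 scale (adjusted p = 0.0313), a call that ended without any 1 of 6 arrays, and the glucose transporter gene Slc5a2 differed by -1.26 (adjusted p = 0.0606). Among 6 markers of the other tubule segments the median was -0.20 and none passed, with -2.71 for Calb1 and 0.99 for Slc12a1.

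For each gene, the 3 genes with the most similar profile were found by the root mean square difference over the 8 arrays, after the 8-week mean of each gene was subtracted. This is a description with no test, and it favours genes with differences of like size. Nearest to Fcgr1 were C3ar1 (0.205), Gbp2 (0.218) and Tlr7 (0.282), which encode a complement receptor, an interferon-induced GTPase and an RNA sensor. Nearest to Fcer1g were the integrin gene Itgam (0.527), the cathepsin gene Ctss (0.535) and the lectin gene Clec4a1 (0.602). Nearest to Tyrobp were Emp3 (0.26), the complement gene C1qc (0.286) and Cd180 (0.331). Nearest to Fcgr4 were Il1rn (0.312), Slamf7 (0.349) and the chemokine gene Cxcl9 (0.408), and nearest to Syk were Fgr (0.174), Fcrls (0.211) and Stap1 (0.211). The neighbours of Fcgr3 were Ddx58 (0.131), Tspan12 (0.164) and Jpt1 (0.164). Those of Fcgr2b were Sdad1 (0.0992), Mtf2 (0.111) and Plpp2 (0.122), and those of Fcgrt were Pdcd2l (0.21), Scn8a (0.212) and Msc (0.213). Within the group itself, Fcgr1 and Tyrobp were nearest to each other (0.52), as were Fcgr3 and Syk (0.328).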

How the data were processed

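Kidney RNA of 8 mice was measured on 1 array each. The deposited values are log2 intensities that, per the submitters' processing notes, come from RMA. Its version, its settings and the log base are not stated in the sources used here. All 22206 probes entered the fit, of which 19572 carry 1 gene symbol, 0 several and 2634 none. Groups came from the sample titles. Nothing in the labels says more about the animals. Each limma p sets the difference between the ages against the variation among samples of the same age, moderated across all probes. No replicate number occurs at both ages.

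Differences (28 weeks minus 8 weeks) were tested with lmFit and eBayes in limma 3.58.1 (R 4.3.3), adjusted across all probes (Benjamini-Hochberg). For a gene with several probes the brightest was used. Alternatives were other scalings, a filter on dim probes, trend and robust options, array weights, a threshold of 0.01 and leaving out arrays. The code was tested on simulated data. Tables used Python 3.11.15 and pandas 2.3.3, and figures matplotlib 3.10.9.

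The genes described and the 21 further lists (7 of the pathway, 13 of cell type markers and 1 of reference genes used for scaling) were chosen with earlier results of these data known. Named from each list were the genes past the threshold or, where fewer than 2 passed, the 2 with the smallest p, and for each Fc receptor gene the 3 nearest profiles. Of the 9 genes, 7 had a promoter in the RefSeq table.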

Additional observations from a re-analysis of the deposited data

Results flagged for a closer look

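In 7 of 114 groups of 4 mice, 1 mouse lay far from the others by Dixon's test at the 95% level, which flags about 1 in 20 groups by chance. The mouse was 28-week replicate 7 in 5 of them and 8-week replicate 1 in 2. Fcgr3 read 9.35 in 28-week replicate 7, and 10.20 to 10.35 in the other older mice. Fcgrt read 12.23 in 8-week replicate 1, and 13.45 to 13.66 in the other younger mice. In 28-week replicate 7 the oxidase gene Cybb read 9.03 (12.58 to 13.28 in the others), the phosphatase gene Inpp5d 5.82 (7.48 to 7.81), the dendritic cell gene Xcr1 5.56 (6.68 to 6.84) and the proximal tubule gene Slc5a2 14.8 (13.47 to 13.67). The T cell gene Cd3d was at 5.19 in 8-week replicate 1 and at 4.92 to 4.96 in the rest of that group.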

How the results depend on the processing

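No paired analysis was possible because the 2 ages share no replicate number. Every gene had 1 probe, so no other probe could be tried, and leaving out the dimmest probes removed Fcgr4. Over all probes 215 passed; 399 did with trend and robust options, 873 with array weights, 18 at an adjusted p under 0.01, 25 to 1237 with 1 array left out, and 1384 without 8-week replicate 1 and 28-week replicate 7 together. Of the 8 Fc receptor genes, 0 passed in the fit reported and with the 3 other scalings; 1 passed without the dimmest probes and 1 with trend and robust options (both Fcgr3), 3 with array weights, 0 to 5 with 1 array left out and 4 without both mice. The only array whose removal gave a call was 28-week replicate 7. Of the pathway genes, 1 passed in the fit reported, 0 with each of the 3 other scalings and at an adjusted p under 0.01, 3 with trend and robust options, 18 with array weights, 0 to 40 with 1 array left out and 41 without both mice.

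Of 119 values of the 8 genes under these settings, 102 kept their side of the threshold and direction, 14 newly passed and 3 turned direction. The 3 were those of Fcgrt, at 0.059 without 8-week replicate 2, 0.062 without 8-week replicate 4 and 0.039 without 28-week replicate 7; without 8-week replicate 1 its difference was -0.41, the lowest with 1 array left out. Of 664 values of 45 other genes named, 579 stayed, 69 newly passed and 16 no longer passed, and none turned. Shifts against Fcgr2b ranged, with 1 array left out, from 2.64 to 4.42 for Fcer1g, 0.74 to 1.74 for Fcgr1, 0.41 to 0.69 for Fcgr3 and 0.21 to 1.42 for Fcgr4; with so few arrangements their adjusted p-values say nothing about stability. Centring on reference genes moved the median of all probes to -0.14 from -0.01. With arrays quantile-normalized again, 17 of the 24 nearest-profile genes were kept. RMA gives no detection call, which limits Fcgr4 most.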
